A study of Mus musculus with 19 samples.

Results

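Oxidative phosphorylation was followed through the nuclear genes for its subunits in cortex of APP23 mice fed a high fat diet (HFD) or a normal diet (ND). The genes were chosen by name, as rows whose symbol begins with Ndufa, Ndufb, Ndufc, Ndufs or Ndufv and a number (complex I), is Sdha to Sdhd (complex II), or begins with Uqcr (complex III), Cox4 to Cox8 and a subunit letter (complex IV) or Atp5 and a letter from a to o (complex V). This gave 76 of the 14996 genes in the table: 37 for complex I, 3 for complex II, 7 for complex III, 14 for complex IV and 15 for complex V. Sdhd, Uqcr11, Cox8a, Cox8b and Atp5g2 were not analysed here. The name rule also takes in Atp5c1-ps, a processed pseudogene, and Ndufa4, whose protein is now assigned to complex IV although its symbol is that of complex I.

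All mice were hemizygous for the APP23 transgene, a human amyloid precursor protein with the Swedish familial Alzheimer's disease mutation on a C57BL/6 background, which a neuronal Thy1 promoter drives. No wild-type mice were sequenced, so every value below belongs to this model. The groups were 5 HFD females, 6 ND females, 4 HFD males and 4 ND males. Feeding lasted 3 months and began at a mean age of 11.7 months, and in HFD the fat, from milk and corn oil, made up 40% of the energy, and 1 mRNA library of cortex was made from each mouse at a mean age of 14.7 months. The tissue label reads brain, but the extraction notes and the methods give cortex. A list of neuronal markers such as Snap25, Camk2a and Thy1 itself took between 1.38% and 1.98% of the reads in every library. This share does not tell cortex from other brain regions.

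The respiratory chain sits in the inner mitochondrial membrane. Complex I takes electrons from NADH and complex II from succinate, complex III passes them from ubiquinol to cytochrome c, and complex IV hands them to oxygen. Complexes I, III and IV move protons out of the matrix, and complex V, the ATP synthase, uses their return to make ATP. Most subunits are encoded in the nucleus, while a small set of core subunits is encoded by mitochondrial DNA, and neurons depend on this supply of ATP to restore ion gradients after firing.

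NRF1, GABPA and YY1 are transcription factors known to act on many nuclear genes of this pathway, so the promoters of the members were searched for their short consensus letters. RefSeq promoter windows (GRCm38.p6, 250 bases before to 50 bases after the start) were at hand for 60 of the 76 members. The NRF1 consensus lay in 9 of these 60 windows (15%), against 5.83% of 11162 promoters of genes in the table. The YY1 core AAGATGGCG lay in 6 (10%), against 2.92%, and the GABPA core CCGGAAG in 12 (20%), against 16.2%. The SP1 box GGGCGGGG was in 10 (16.7%), against 32.9%, and TATAAA in 5 (8.33%), against 7.19%. Both strands were read, and a match is a description of letters, not a binding site.

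The 150 bases before the start are printed 5′ to 3′ on the gene's own strand for 6 members, with any motif above in capitals. Ndufb4 (chr16:37654369-37654518, minus strand) and Sdha (chr13:74350241-74350390, minus strand) show the NRF1 consensus, which Ndufb4 holds in 2 copies. Ndufb7 (chr8:83566608-83566757, plus strand) shows the GABPA core and Ndufs7 (chr10:80249299-80249448, plus strand) the TATA box. Uqcr10 (chr11:4704345-4704494, minus strand) and Atp5d (chr10:80142125-80142274, plus strand) hold none of the 5 in this stretch and are shown because they were among the members with the smallest p between females and males.
Ndufb4: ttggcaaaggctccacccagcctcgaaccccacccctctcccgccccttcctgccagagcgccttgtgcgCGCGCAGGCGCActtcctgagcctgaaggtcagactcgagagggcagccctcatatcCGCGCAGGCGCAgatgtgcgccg
Sdha: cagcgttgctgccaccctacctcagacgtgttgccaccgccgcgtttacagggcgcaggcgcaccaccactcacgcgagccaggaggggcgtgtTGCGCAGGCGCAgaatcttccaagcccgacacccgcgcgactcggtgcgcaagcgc
Ndufb7: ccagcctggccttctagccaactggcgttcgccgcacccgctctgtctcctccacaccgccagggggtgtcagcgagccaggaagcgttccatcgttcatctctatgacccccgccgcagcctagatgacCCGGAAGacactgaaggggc
Ndufs7: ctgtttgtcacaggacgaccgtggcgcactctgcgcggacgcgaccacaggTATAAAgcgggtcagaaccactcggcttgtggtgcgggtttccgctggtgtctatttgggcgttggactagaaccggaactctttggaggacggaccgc
Uqcr10: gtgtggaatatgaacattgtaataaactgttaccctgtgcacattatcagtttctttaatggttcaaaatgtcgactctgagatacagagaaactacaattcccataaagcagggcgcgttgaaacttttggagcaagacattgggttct
Atp5d: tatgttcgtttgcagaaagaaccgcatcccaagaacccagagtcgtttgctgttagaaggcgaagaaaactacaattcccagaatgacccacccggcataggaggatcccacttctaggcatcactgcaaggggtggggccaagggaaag

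Together the 76 members took between 0.768% and 0.828% of the reads of each library, which is 73652 to 142014 reads per mouse. Library totals ran from 11727151 to 17178044 reads in females and from 9308206 to 10844280 in males. Every female library was therefore deeper than every male library, and depth and sex cannot be told apart by group. Values are given in RPM, a gene's reads scaled to a common library total.

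Per length of transcript, the members spanned a wide range. The median over the 76 was 74.5 RPM per kb. Atp5b, the catalytic beta subunit of ATP synthase, stood highest at 604 RPM per kb, followed by Cox4i1, the common isoform of subunit 4 of cytochrome c oxidase, at 469 and Ndufa4 at 364. Sdha, the flavoprotein that oxidises succinate, led complex II with 164 RPM per kb. Medians by complex were 66.0 RPM per kb for complex I, 90.0 for complex II, 112 for complex III, 78.9 for complex IV and 129 for complex V. Differences between complexes are of the level per length and carry no test, since genes are not replicates.

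A group of 10 members lay under 10 RPM per kb. Of these, 5 are isoforms known mainly from other tissues or states: Cox4i2 (1.78 RPM per kb), Cox6a2 of heart and skeletal muscle (4.58), Cox6b2 of testis (2.53), Cox7a1 of muscle (2.62) and Ndufa4l2, induced by low oxygen (1.77). Their partners in cortex were far more abundant, with 249.1 RPM per kb for Cox6a1, 227 for Cox6b1 and 170 for Cox7a2. The pair Atp5g1 and Atp5g3, which encode the same c-ring subunit of ATP synthase with different targeting sequences, stood at 4.16 and 249.5 RPM per kb. Atp5g1 was set against a transcript of 4715 bases, the longest of all members, so its value per kb depends on the transcript model used.

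The remaining low members were the pseudogene Atp5c1-ps and 3 genes for ubiquitous subunits. Atp5l, subunit g of ATP synthase, had 1.66 RPM per kb, Cox7c, a small subunit of cytochrome c oxidase, 6.76, and Ndufb4, an accessory subunit of complex I, 7.76. These 3 also share sequence with other genes. Of the stretches of 50 bases in the Atp5l transcript, 84.8% occur in transcripts of 14 other genes, and the shares were 53.0% for Cox7c and 37.0% for Ndufb4. Over all members, 28 of 76 shared at least 10% of their stretches. Sharing did not always go with so low a level: Atp5h shared 50.5% and had 82.8 RPM per kb. The median was 74.5 over all members and 129 in complex V, to which Atp5h belongs. How reads that fit several genes were counted is not given in the sources used here, so the levels of members with shared sequence are uncertain, and the part of sharing in the low values was not tested.

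**Figure D1:**
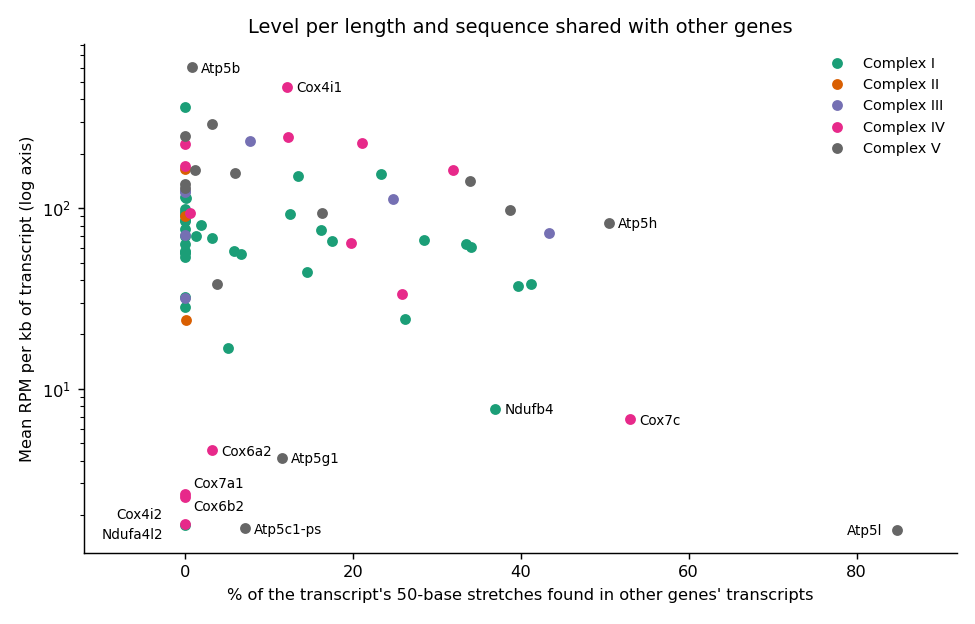
Mean RPM per kb of transcript (log axis) against the share of each transcript's 50-base stretches that also occur in transcripts of other genes, 1 point per member, coloured by complex. Atp5l (84.8%, 1.66 RPM per kb), Cox7c and Ndufb4 combine shared sequence with a low level, while the isoforms Cox4i2, Cox6b2, Cox7a1 and Ndufa4l2 are low with 0% shared.

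Within a group, the members varied little from mouse to mouse. The SD within groups was taken on the log2 CPM scale (log2 of counts scaled to library size by TMM). Its median was 0.07 over members at 5 RPM or more, against 0.13 over the 11644 genes at or over that floor. Members and genes were not matched for level above it. Cox4i1 varied least, with an SD of 0.034, and Atp5a1, the alpha subunit of ATP synthase, had 0.039. Cox6b2 varied most with an SD of 0.51, at a mean of 1.397 RPM.

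The first question was whether HFD moved these genes. No member reached an adjusted p under 0.05 in females, in males, with the sexes combined or for the interaction of diet and sex, and neither did any other gene (0% of all genes tested in each of these fits). DESeq2 and limma gave the same count of 0 among members. The median log2 fold change, HFD over ND, was 0.01 in 76 members in females and -0.01 in 74 tested members in males, against 0.00 over all genes in both. Atp5l and Cox7a1 had too few reads to be tested in males. The precision was high enough to bound most members: the 95% interval of the fold change lay within 0.32 log2 units either way for 68 of 76 members in females, 65 of 74 in males and 68 of 76 in both sexes together. In females the 8 members outside that bound were Cox7c, Atp5c1-ps, Atp5l and the 5 tissue isoforms.

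In females, 1 member had a higher and 2 had a lower level with HFD before adjustment (p under 0.05), where 3.92% of all genes were higher and 4.50% lower. Atp5d, the delta subunit in the central stalk of ATP synthase, had 121, 130, 112, 120 and 123 RPM in the HFD females, against a lowest of 129, a median of 134 and a highest of 143 RPM in the ND females. All HFD females but 1 lay below every ND female (log2 fold change -0.15, SE 0.04, unadjusted p = 0.0048, edgeR adjusted p = 0.40). Uqcrq, a small subunit of complex III near its ubiquinone site, had 47.2, 49.1, 53.1, 54.8 and 53.1 RPM with HFD, against 53.7, 57.9 and 59.4 RPM (lowest, median, highest) with ND. These ranges overlapped in 1 HFD mouse (log2 fold change -0.15, SE 0.05, unadjusted p = 0.0098, edgeR adjusted p = 0.46). Cox7b, an X-linked small subunit of cytochrome c oxidase, had 99.7, 92.04, 94.5, 107 and 104 RPM with HFD, against 84.2, 94.4 and 96.5 RPM with ND (0.11, SE 0.05, edgeR adjusted p = 0.57).

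In males, 2 members had a higher and 2 a lower level with HFD before adjustment, against 4.20% of all genes in each direction. Ndufb7, an accessory subunit of the membrane arm of complex I, had 38.5, 36.8, 37.5 and 40.0 RPM with HFD, against 34.4, 35.4, 31.1 and 35.8 RPM with ND. The male groups did not overlap (log2 fold change 0.20, SE 0.06, edgeR adjusted p = 0.55). Ndufv3, an accessory subunit of the NADH-oxidising module, had 42.5, 41.9, 44.8 and 45.9 RPM with HFD, against 52.0, 46.3, 46.4 and 51.9 RPM with ND, again without overlap (-0.13, SE 0.06, edgeR adjusted p = 0.59). Without overlap in RPM, HFD lay above ND in males for 1 of 74 members, where 1.53% of all genes did so, and below for 4, against 3.39% of all genes. The other members below were Cox6b1 (-0.08, SE 0.05), Cox7a2l (-0.09, SE 0.05) and Cox7c (-0.25, SE 0.15), subunits of complex IV or, for Cox7a2l, a protein of respiratory supercomplexes, with edgeR adjusted p of 0.65 to 0.66. Atp5j2, subunit f of ATP synthase, had 35.0, 34.4, 37.7 and 37.6 RPM with HFD, against 44.1, 40.7, 37.1 and 44.1 RPM with ND (-0.16, SE 0.07, edgeR adjusted p = 0.56). Ndufc2, a membrane-arm subunit of complex I, had 55.3, 61.1, 56.4 and 62.3 RPM with HFD, against 56.8, 56.9, 51.6 and 52.4 RPM with ND (0.15, SE 0.06, edgeR adjusted p = 0.57). The male count was 1 without either ND mouse F1079 or F1131 and 2 without HFD mouse F1065, and the female count was 6 without HFD mouse F1094.

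**Figure D2:**
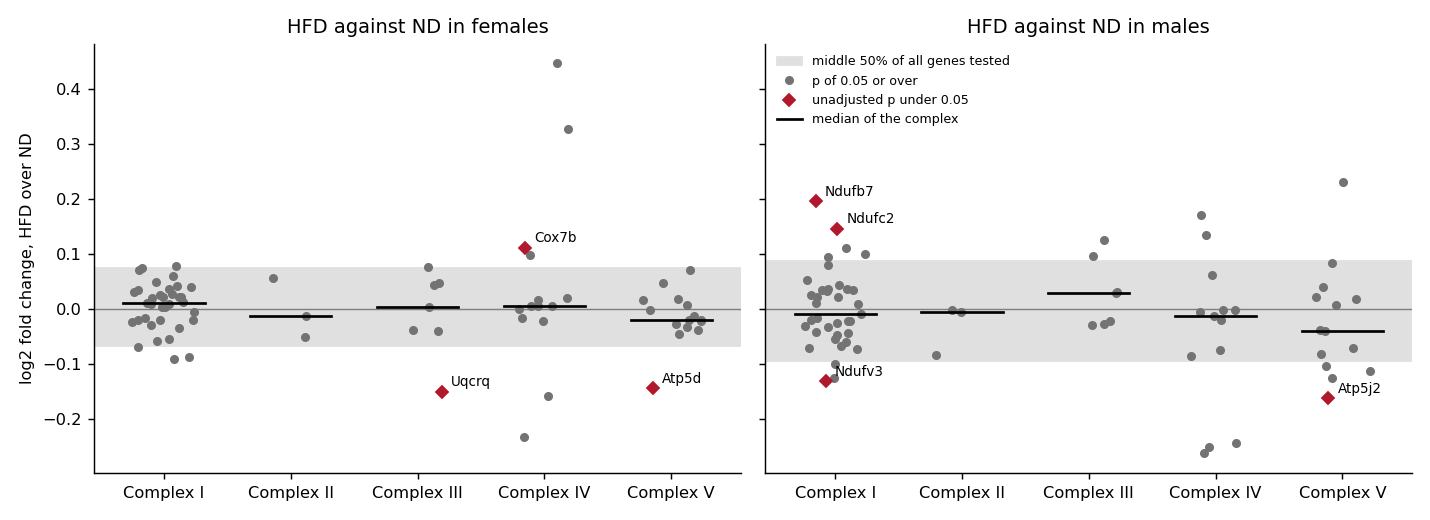
log2 fold change of each tested member, HFD over ND, by complex, in females (left) and males (right). Diamonds are members at an unadjusted p under 0.05, black lines are medians of each complex and the grey band holds the middle 50% of all genes tested (-0.07 to 0.07 in females, -0.10 to 0.09 in males). The medians of all complexes lie inside the band.

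With both sexes in 1 fit and a term for sex, 1 member had a higher and 4 had a lower level before adjustment, against 5.99% and 6.30% of all genes. Cox7b was the higher one (log2 fold change 0.09, SE 0.04, edgeR adjusted p = 0.32). The lower ones were Ndufc1, an accessory subunit of complex I (-0.10, SE 0.04), Atp5d (-0.08, SE 0.04), Cox7c (-0.24, SE 0.11) and Atp5g3 (-0.07, SE 0.03), with edgeR adjusted p between 0.30 and 0.36. This count was 2 when HFD female F1063 or F1094 or ND female F1102 or F1139 was left out. None of the 3 genes of complex II was among them. Sdha had 478, 444, 438, 467 and 469 RPM in HFD females, against 443, 467 and 483 RPM (lowest, median, highest) in ND females. In males Sdha had 498, 474, 474 and 500 RPM with HFD, against 513, 482, 516 and 484 RPM with ND. Its log2 fold change over both sexes was -0.01 with a 95% interval of -0.06 to 0.05, and that of Sdhb, the iron-sulfur subunit, was -0.03 with an interval of -0.10 to 0.03.

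The sexes were also compared in their response to diet. Before adjustment, the diet effect was higher in females for 2 members and lower for 4, against 2.38% and 2.83% of all genes, and no member passed the adjusted p, which was 0.90 for all 6. They were Atp5k, subunit e of ATP synthase (difference of log2 fold changes, females minus males, 0.20, SE 0.08), Ndufa4 (0.15, SE 0.07), Uqcrq (-0.28, SE 0.12), Ndufb7 (-0.20, SE 0.07), Ndufc2 (-0.20, SE 0.07) and Atp5d (-0.15, SE 0.07). Atp5k had 60.9, 62.0, 57.6, 66.4 and 64.4 RPM in HFD females, against 57.7, 59.7 and 61.2 RPM in ND females. In males it had 57.7, 50.1, 54.1 and 60.8 RPM with HFD, against 63.1, 55.9, 68.0 and 61.7 RPM with ND. The count fell to 2 without ND male F1128 and to 3 without HFD male F1129.

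Markers of other cells moved with diet at the same unadjusted threshold. Of 10 microglia markers, 7 were higher with HFD in females and 7 in males, where 3.92% and 4.20% of all genes were higher. Their summed level was 531 to 838 RPM in HFD females and 510 to 715 in ND females. In males it was 438 to 648 with HFD and 398 to 436 with ND. In females all 5 erythrocyte genes were higher, with a summed level of 4.50 to 93.4 RPM with HFD and 0.767 to 10.2 RPM with ND. In males 4 of 12 neuronal markers were higher and none lower, against 4.20% of all genes in each direction. Their log2 fold changes in males ran from -0.48 to 0.50, with 10 positive and 2 negative. In females no neuronal marker was past the threshold either way. The neuronal list holds Thy1 (mean of 4248 RPM over all mice), whose promoter drives the transgene. Whether transgene reads were counted as Thy1 was not tested. In bulk tissue, fewer cells of a type and less RNA per cell cannot be told apart. The part of these shifts in the members' values was not tested.

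Neighbouring gene groups were counted at the same unadjusted threshold under diet. Of 74 mitochondrial ribosomal proteins 3 were higher and 4 lower in females, against 3.92% and 4.50% of all genes. In males 2 were higher and none lower, against 4.20% of all genes in each direction. Among 47 assembly factors none passed in females and 1 did in males. With both sexes together 3 were higher, a share near the 5.99% of all genes. Among these 3 were Ttc19, which serves complex III (0.13, SE 0.05), and Timmdc1, which serves complex I (0.11, SE 0.05). Among 21 genes of the citric acid cycle and pyruvate dehydrogenase none passed in any of the 3 diet fits. Of 18 regulators of mitochondrial biogenesis, Ppargc1a, the coactivator PGC-1 alpha, was the only one past it in both sexes together (-0.15, SE 0.06, edgeR adjusted p = 0.29). Its direction was lower with HFD, as for 6.30% of all genes at this threshold, while the members' median in that fit was 0.00.

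The 13 subunits encoded by mitochondrial DNA took more reads than all 76 nuclear members, 3.06% to 3.92% of each library. Their mean levels over all mice ran from 6.57 RPM for ATP8 to 11508 RPM for COX1. ATP6 had a mean of 144, COX3 of 133 and COX2 of 92.8 RPM. Sequence shared with other genes was not searched for these 13, so the effect of such reads on their levels is not known. In females 4 of the 13 were higher with HFD at an unadjusted p under 0.05 and none was lower, against 3.92% and 4.50% of all genes. The median log2 fold change of the 13 was 0.09, and genes of a set are not replicates. The changes ran from -0.70 to 0.37, with 10 positive and 3 negative. The mean log2 CPM over the 13 was not higher with HFD, at 8.84 in HFD and 8.88 in ND females. HFD female F1063 was the lowest at 8.39. ND1, a core membrane subunit of complex I, had 4706, 4438, 5269, 5451 and 5268 RPM in HFD females, against 4177, 4471 and 4666 RPM (lowest, median, highest) in ND females. All HFD females but 1 lay above every ND female, with a log2 fold change of 0.18 (SE 0.06, edgeR adjusted p = 0.46). ND2 (0.18, SE 0.06), ND4 (0.14, SE 0.05) and ATP6 (0.37, SE 0.16) were the others. In males 1 of the 13, COX2, was past that threshold (0.30, SE 0.11), where 4.20% of all genes were higher, and ND1 differed by 0.05 (SE 0.08). The difference between the sexes in ND1 did not pass the interaction test (0.13, SE 0.10). The median over the 76 nuclear members in females was 0.01, and the nuclear and mitochondrial sets were not compared by a test.

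**Figure D3:**
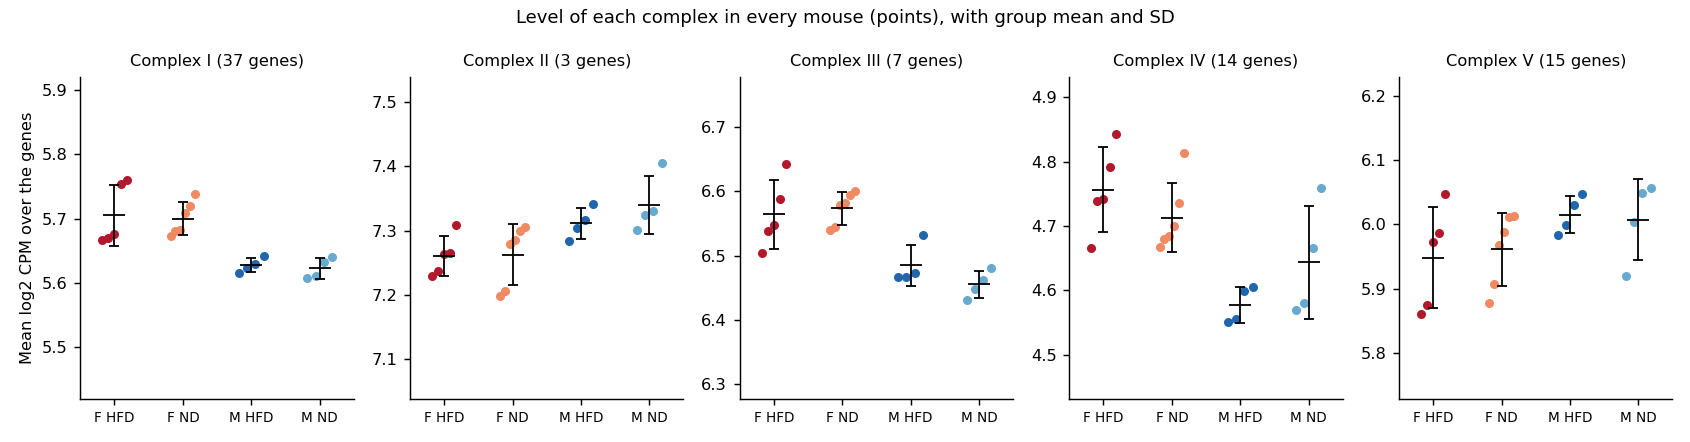
Mean log2 CPM over the genes of each complex, 1 point per mouse, with the mean and SD of each group; all panels span the same range of 0.5 log2 units. For complex I every female (5.67 or more) lies above every male (5.64 or less) on this TMM scale, but on log2(RPM + 1) the ranges overlap (5.68 to 5.79 in females, 5.62 to 5.71 in males), while the HFD and ND groups of each sex overlap in every complex.

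More members differed between females and males than between the diets. With diet in the model, 19 members were higher and 3 lower in females at an adjusted p of 0.05, which is 22 of 76, against 6.37% of all genes higher and 4.85% lower. Before adjustment, 31 had a higher and 7 a lower level, against 14.4% and 12.2% of all genes. The differences were small: the median over members was 0.05 on the log2 scale, against 0.00 over all genes. Over the fifth of all genes with the shortest transcripts, 66 to 1651 bases, the median was 0.04. Of 76 members, 63 had an interval within 0.32 log2 units. By complex, the adjusted calls were 12 higher of 37 for complex I, 1 lower of 3 for complex II, 2 higher and 1 lower of 7 for complex III, 2 higher of 14 for complex IV and 3 higher and 1 lower of 15 for complex V. Within complex I, 11 of the 30 accessory subunits were higher, and of the 7 core subunits 1 was.

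Every female exceeded every male in 3 members, where 0.375% of all genes did so. Uqcrq had 47.2 to 59.4 RPM with a median of 54.8 in 11 females, against 33.4 to 46.5 RPM with a median of 41.0 in 8 males (log2 fold change 0.46, SE 0.06, edgeR adjusted p = 0.00019). Uqcr10, another small subunit of complex III, had 51.5 to 61.7 RPM with a median of 57.1 in females, against 42.6 to 51.5 RPM with a median of 49.6 in males (0.25, SE 0.04). Ndufs7, the core subunit of complex I that holds its terminal iron-sulfur cluster, had 53.1 to 62.2 RPM with a median of 56.1 in females, against 40.9 to 52.3 RPM with a median of 48.8 in males (0.27, SE 0.05). The promoters of Uqcr10 and Ndufs7 are those printed above, and the motifs were counted in the 18 promoters of members higher in females and the 42 of members not called, with no test. The NRF1 consensus was in 0 of 18 and 9 of 42, the GABPA core in 4 and 8, the YY1 core in 3 and 3, the SP1 box in 2 and 8 and the TATA box in 3 and 2.

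Further members higher in females were Ndufc1 (0.29, SE 0.04), Atp5d (0.24, SE 0.04), Ndufb2 (0.24, SE 0.05), Ndufb7 (0.22, SE 0.04), Ndufb6 (0.21, SE 0.05), Ndufa13 (0.21, SE 0.04) and Ndufb10 (0.18, SE 0.03). All but Atp5d are accessory subunits of complex I. Ndufc1 had 20.7 to 25.6 RPM with a median of 22.3 in females, against 17.1 to 21.4 RPM with a median of 17.9 in males, so that the ranges overlapped narrowly. Of the 3 X-linked members, only Ndufa1, an accessory subunit of complex I, passed the adjusted p (0.16, SE 0.05, edgeR adjusted p = 0.036). That call held in only 5 of the 19 fits that leave out 1 mouse (edgeR adjusted p up to 0.078) and ended on thinned counts (edgeR adjusted p = 0.076).

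**Figure D4:**
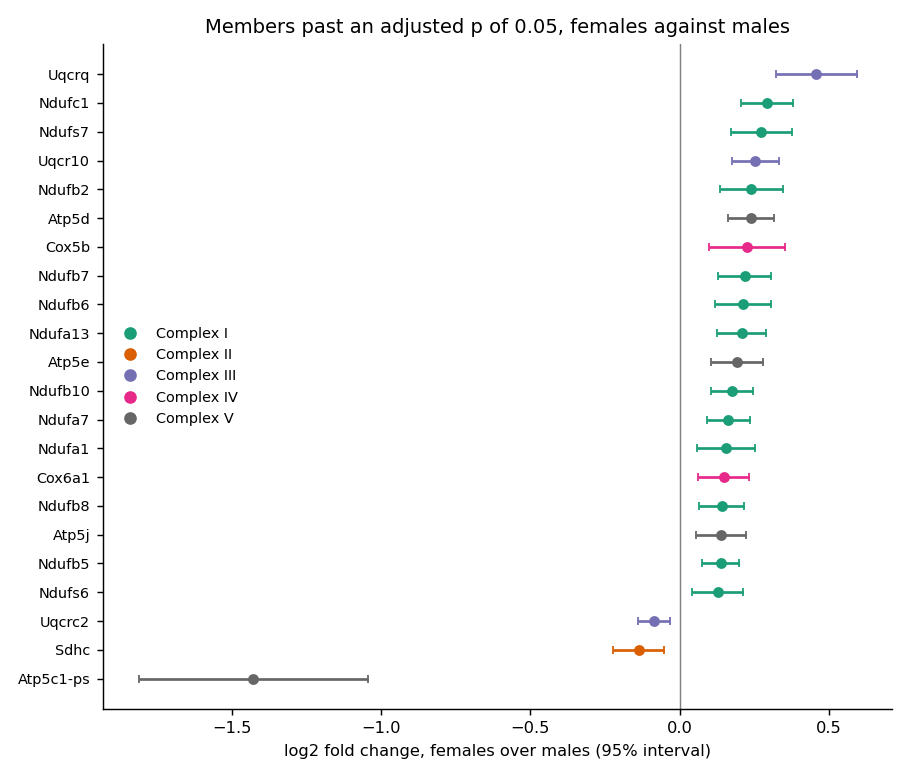
log2 fold change, females over males, with its 95% interval for the 22 members past an adjusted p of 0.05, coloured by complex and ordered by size. Uqcrq (0.46) is at the top and the pseudogene Atp5c1-ps (-1.43) at the bottom.

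The members lower in females were Sdhc, Uqcrc2 and Atp5c1-ps. Sdhc, a membrane anchor of complex II, had 66.7 to 83.5 RPM with a median of 74.5 in females, against 74.6 to 89.7 RPM with a median of 79.96 in males (-0.14, SE 0.04, edgeR adjusted p = 0.034). Sdha had a difference in the same direction (-0.08, SE 0.03, edgeR adjusted p = 0.053), and Sdhb, with 95.1 to 115 RPM in females against 96.3 to 107 RPM in males, did not (0.03, SE 0.03). Uqcrc2, a core protein of complex III, differed by -0.08 (SE 0.03, edgeR adjusted p = 0.037). Neither call was stable: with 1 mouse left out in turn, Sdhc stayed past the threshold in 13 of 19 fits (edgeR adjusted p up to 0.073) and Uqcrc2 in 10 of 19 (up to 0.077). Sdhc differed by -0.07 in HFD mice alone (edgeR adjusted p = 0.54).

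Atp5c1-ps was the only member for which every female lay below every male, as 0.194% of all genes did. It had 0.424 to 1.19 RPM with a median of 0.922 in females, against 1.56 to 3.69 RPM with a median of 2.17 in males (log2 fold change -1.43, SE 0.18, edgeR adjusted p = 7.8e-05). These values rest on 7 to 17 reads per female and 16 to 40 per male, although the male libraries are the shallower ones. GENCODE places it on the minus strand of chr13:77669087-77670475 of GRCm38, and its transcript is 90.7% identical over 914 aligned positions to Atp5c1, the gamma subunit of ATP synthase. Of its 50-base stretches, 7.2% occur in other genes. Atp5c1 itself had 170 to 195 RPM in females and 169 to 203 RPM in males. Of 45 rows whose symbol marks a pseudogene in this way, 3 were higher and 3 lower in females at an adjusted p of 0.05. Atp5c1-ps is 1 of the 3 lower ones. These shares are near those of all genes, 6.37% higher and 4.85% lower.

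**Figure D5:**
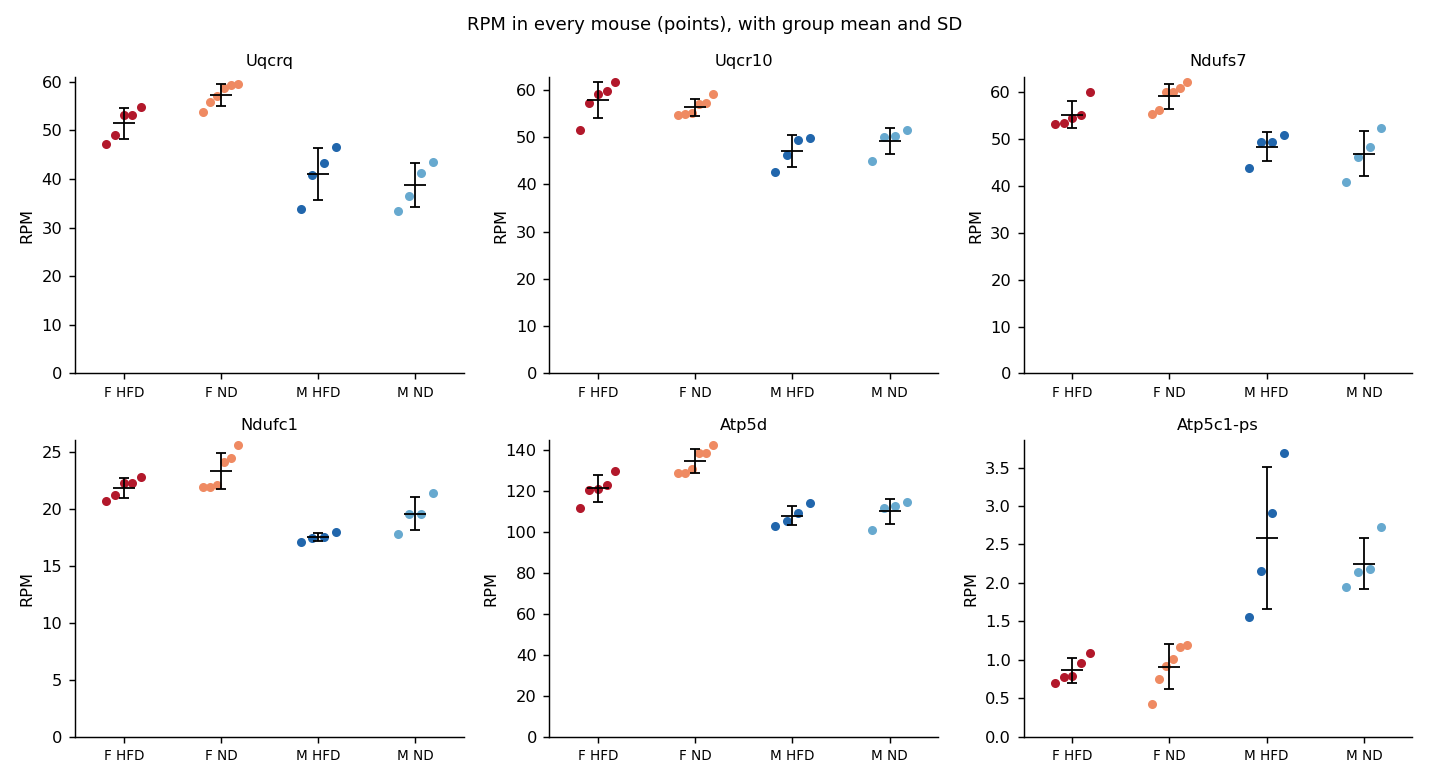
RPM of 6 members in every mouse, with the mean and SD of the 5 HFD females, 6 ND females, 4 HFD males and 4 ND males, on axes that start at 0. For Uqcrq, Uqcr10 and Ndufs7 every female is above every male, Ndufc1 and Atp5d overlap, and Atp5c1-ps is below every male in every female.

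The sex difference was looked at within each diet. All 22 members kept their direction in HFD mice alone and in ND mice alone, which is no independent support since both diets chose them. The adjusted p was passed by 1 of them, Atp5c1-ps, in HFD mice (-1.58) and by 9 in ND mice, among them Uqcrq (0.60), Ndufs7 (0.36) and Atp5d (0.32). In HFD mice these 3 differed by 0.31, 0.18 and 0.15. When the counts of every library were thinned to the lowest total, 9308206 reads, 20 of the 22 stayed past the adjusted p, the exceptions being Ndufa1 and Ndufs6, an accessory subunit of complex I, and Uqcrq then differed by 0.46. Thinning makes the read number equal and leaves any other difference in library preparation between the sexes, which the labels do not record.

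Other measures moved with sex too. Among all genes the bin with the highest GC content in its transcripts, 56.1% or more, had a median log2 difference of 0.08, against -0.02 to 0.00 in the other GC bins. The 19 members higher in females had a median GC content of 55.3%, against 51.4% in the 54 not called and 44.4% in the 3 lower ones. By transcript length, the shortest bin of all genes (66 to 1651 bases) had a median log2 difference of 0.04 and the longest bin -0.03. Median length was 680 bases in the higher members, 868 in those not called and 1896 in the lower ones. Over all genes it was 2942 bases. Of 10 microglia markers 7 were higher in females at an adjusted p of 0.05, as were 5 of 8 oligodendrocyte markers and 6.37% of all genes. The summed level of the oligodendrocyte markers was 2866 to 5882 RPM in females, against 2657 to 3717 RPM in males. Apart from such measures, 10 of the 22 members share at least 10% of their 50-base stretches with other genes, against 28 of all 76, among them Ndufb6 (34.1%, with Smim27) and Ndufa13 (28.5%, most with Tssk6). Outside the members, Rps29 had 0.932 to 1.79 RPM in females, against 16.6 to 22.8 RPM in males. Rps13 had 0.434 to 1.28 RPM in females, against 1.44 to 3.92 RPM in males. Rps10 went the other way, with 16.9 to 19.8 RPM in females against 11.8 to 15.7 RPM in males. The part of GC content, transcript length, cell makeup and shared sequence in the sex difference was not tested. Nor was a difference in library preparation or mapping that runs with sex. The paper reports more amyloid plaque in females than in males on each diet, and the part of plaque load was not tested.

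Gene groups next to the members differed in their counts between the sexes, where 6.37% of all genes were higher in females and 4.85% lower. Of 74 mitochondrial ribosomal proteins 13 were higher and none lower at an adjusted p of 0.05. Of 47 assembly factors 4 were higher, a share near that of all genes, and none lower, among them Cox17, a copper chaperone for complex IV (0.26, SE 0.05), and Coa6 (0.38, SE 0.08). Of the 13 mitochondrially encoded subunits 5 were higher and none lower, led by COX3, a core subunit of complex IV, with 100 to 206 RPM and a median of 158 in females, against 79.0 to 109 RPM and a median of 98.7 in males (0.74, SE 0.10, edgeR adjusted p = 0.00033). Of the females, 1 HFD mouse lay inside the male range. COX3 stood far below COX1 (means over all mice of 133 and 11508 RPM), and its shared sequence was not searched. Mpc2, of the mitochondrial pyruvate carrier, was higher too (0.25, SE 0.04), while the citric acid cycle list as a whole had 2 higher and 1 lower of 21. The 18 regulators of mitochondrial biogenesis had 2 higher and 2 lower, with a median of -0.06, and the 12 genes of mitochondrial DNA expression had 1 higher and 1 lower.

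The muscle isoform Cox6a2 came close to the threshold between the sexes. It had 1.75 to 5.51 RPM with a median of 3.54 in females, against 1.39 to 3.79 RPM with a median of 2.25 in males (0.63, SE 0.21, edgeR adjusted p = 0.059). Pvalb, the marker of parvalbumin interneurons, differed by 0.46 (SE 0.17, edgeR adjusted p = 0.083) in the same direction. Of the 8 genes on the list for these interneurons none passed the adjusted p, 6 were positive and 2 negative, and the median was 0.09. In females Cox6a2 had 4.85, 4.08, 5.51, 3.01 and 3.90 RPM with HFD, against 1.75, 3.08 and 5.15 RPM with ND (0.45, SE 0.25, edgeR adjusted p = 0.67).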

How the data were processed

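Cortical mRNA libraries of 19 APP23 mice were analysed, 1 per mouse. The authors counted reads per gene on mouse build mm9 with Subread (version 1.4.0 in the submitters' processing notes) and featureCounts, and deposited raw counts and, beside them, RPM of every gene. The handling of multiply mapped reads, the strand setting and the read length are not given in the sources used here. All 38 value columns were used.

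Counts were tested with the quasi-likelihood test of edgeR 4.0.16 (R 4.3.3, limma 3.58.1, statmod 1.5.0) after filterByExpr (minimum count 10, minimum total 15), with TMM scaling and robust dispersions, in 5 comparisons, and p-values were adjusted by Benjamini-Hochberg over all genes tested. SE is the log2 fold change divided by the square root of F, and 95% intervals use the same test. RPM values are per mouse, and levels of complexes are means of log2 CPM with a prior count of 2, without a test. The script was tested on simulated data.

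Transcript length, GC content and shared 50-base stretches come from GENCODE vM21 and promoters from RefSeq (both GRCm38), for 76 and 60 of the 76 members, with 1 transcript and 1 window per gene. No mm9 coordinates were used. Biopython 1.88 aligned the pseudogene and matplotlib 3.10.9 drew the figures.

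Genes were named by rule: all Sdh genes, the 2 members with the smallest p per direction and complex in each diet comparison, isoform groups, members past an adjusted p (at most 10 per direction), the extremes of the interaction and the sex comparison, the highest and lowest member per complex, and up to 2 genes of other lists. Ndufb4, Atp5a1, Atp5c1, Atp5h, Ndufa1, Ndufs6, Atp5j, Cox5b and the mitochondrially encoded genes were named after their values were seen. Members and lists were chosen with earlier results of these data known. Alternatives were DESeq2 1.42.0, limma-voom, limma on log2(RPM + 1), library totals or RLE scaling, other filters, a 4-group fit, no sex term and mice left out. Thinned counts and single-diet fits were added after seeing the data.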

Additional observations from a re-analysis of the deposited data

Results flagged for a closer look

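Of 112 sets of values tested for a mouse far from the rest of its group, 4 were past Dixon's 95% limit, and chance alone gives about 1 in 20. Cox7c had 5.15 RPM in ND female F1102, against 3.39 to 3.91 RPM in the other ND females. Sdhb had 107 RPM (107.3) in ND male F1080, against 101.8 to 102.3 RPM in the other ND males. Atp5l had 1.27 RPM in HFD male F1129, against 0.874 to 0.922 RPM in the other HFD males. The mean log2 CPM of complex III was 6.53 in HFD male F1145, against 6.47 in the other HFD males.

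The diet effect differed between the sexes at an unadjusted p under 0.05 in 6 members, none of which passed the adjusted p (0.90 for each, edgeR). The difference of the log2 fold changes, females minus males, was -0.20 for Ndufc2, -0.20 for Ndufb7, 0.20 for Atp5k, -0.28 for Uqcrq, -0.15 for Atp5d and 0.15 for Ndufa4.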

How the results depend on the processing

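No member passed an adjusted p under diet or for the interaction in any alternative run. Members past an unadjusted p under 0.05 numbered 3 in females (2 to 6 with a mouse left out), 4 in males (1 to 6), 5 in both sexes (2 to 7), 6 for the interaction (2 to 9) and 38 between the sexes (32 to 38). With DESeq2 the count was 1 in males and 3 in both sexes, with 1 fit of all 4 groups 7 in males, and without a term for sex 3 in both sexes. Between the sexes, members higher past the adjusted p numbered 19 (14 to 21 with a mouse left out), and members lower 3 (1 to 4). The count of lower members was 1 without ND female F1073, ND males F1079 or F1128, or HFD male F1145, 5 with DESeq2, and 1 without the mice whose identifiers begin with A. Of the 22 members, 15 stayed past it whichever mouse was left out, and 7 did not (Atp5j, Cox5b, Cox6a1, Ndufa1, Ndufs6, Sdhc and Uqcrc2). In HFD mice alone 23 members passed an unadjusted p, 0 were higher and 1 lower past the adjusted p, and in ND mice alone these were 23, 8 and 1, with fewer mice in each fit. On log2(RPM + 1), HFD minus ND in males was -0.0401 for all members (-0.01 on log2 CPM), -0.0307 for complex I (0.00), -0.006 for complex III (0.03) and -0.0437 for complex V (0.01). The median fold change of members in males was -0.0115, and it was -0.0470 with limma on log2(RPM + 1) and -0.0465 with library totals, and the cause was not tested. In the 150 bases before the start, the YY1 core was in 0% of members' promoters, since its matches lay outside that window. No paired analysis was possible because each mouse is in 1 group only and no label links mice across groups. Under the lowest depth, members such as Atp5l rest on few reads, and their intervals exceed 0.32 log2 units.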
